A study of Mus musculus with 13 samples.

Results

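Whole-heart RNA-seq libraries of R502W mice given mavacamten (4 libraries) were compared with those of R502W mice labelled control (4 libraries), 8 of the 13 libraries of the study. They were chosen by labelled genotype and treatment alone, and 15000 of 55471 genes passed a low-count filter and were tested. Both groups carry R502W, which alters an amino acid of myosin-binding protein C, the product of Mybpc3. Mavacamten was taken with the drinking water at 2.5 mg/kg/day over 21 weeks. The other 5 libraries are WT control hearts, used here as a reference level and in the estimate of the spread. The design text puts the mice at 24 weeks of age, while the extraction protocol speaks of hearts from 3 and 18 weeks. Both of the latter are shorter than the 21 weeks of treatment, so only 24 weeks can hold for the treated libraries. For the control libraries the age rests on the design text alone. Strain, zygosity, sex, the control drink and the hour of collection are not known here. Each library name carries its own number, but the labels do not say that each number is a separate mouse. The p-values then describe only how much these libraries vary. No pair of replicates agreed within sampling noise, but part of the variation may still be technical.

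Cardiac muscle contracts when myosin heads on the thick filament bind actin and use ATP. Myosin-binding protein C helps to hold some of these heads in a resting state, and variants of its gene are a common cause of hypertrophic cardiomyopathy, in which the ventricular wall thickens, relaxes poorly and can become fibrotic. Mavacamten binds cardiac myosin and lowers the number of heads available to actin. Hearts under such strain are known to switch on a fetal gene programme (Myh7, Acta1 and the natriuretic peptides) together with matrix genes, and to lower transcripts for fatty acid oxidation. The comparison asks which transcripts of an R502W heart stand at another level after the drug.

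The 8 libraries expressed heart muscle genes at high levels. Myh6, the main myosin heavy chain of the adult mouse heart, stood at 31862 to 35106 CPM (expected counts scaled to a common library size) in control and 28396 to 40240 CPM in treated hearts. Myl2, the ventricular regulatory light chain, stood at 2840 to 3648 and 2895 to 4362 CPM, and 16 atrial markers summed to 5891 to 11753 CPM in control and 4983 to 8664 CPM in treated hearts. Total expected counts ran from 15350622 to 19361103 in the control libraries and from 16001651 to 17520706 in the treated ones. Some libraries stood apart in Bmp10 or in genes of other tissues. Bmp10, made by atrial muscle, was at 1.57, 644, 653 and 672 CPM in control replicates 1 to 4 and 497, 639, 6.23 and 569 CPM in mavacamten replicates 1 to 4, so that control replicate 1 and treated replicate 3 held almost none. The 16 atrial markers did not follow Bmp10 as a set. Control replicate 1 was the lowest control in 2 of them and control replicate 3 in 13. Treated replicate 3 was the lowest treated library in 4 and treated replicate 2 in 10. A low Bmp10 is therefore no measure of atrial content. Scgb1a1, an airway secretory protein, was at 87.2, 1.67, 2.41 and 11.7 CPM in treated hearts and 0 to 0.67 CPM in control hearts. The fat hormone gene Adipoq was at 70.7, 13.95, 0.68 and 11.1 CPM in control and 23.4, 1.61, 2.41 and 97.8 CPM in treated hearts, highest in control replicate 1 and treated replicate 4. Treated replicate 4 also held interferon-induced transcripts far above the other 7 libraries. Results that rest on these libraries are given with and without them.

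No gene passed the threshold between treated and control R502W hearts in edgeR's quasi-likelihood test, with 0 of 15000 genes higher (0%) and 0 lower (0%) at an adjusted p under 0.05. An unadjusted p under 0.05 was found for 525 genes (3.5% of those tested), 270 of them higher (1.8%) and 255 lower (1.7%), where 750 would be reached by chance. All 4 treated libraries lay above all 4 controls for 193 genes (1.29%) and below them for 237 (1.58%), 430 in all (2.87%). Chance alone would part 4 and 4 libraries in about this share of genes. It is the background for every gene below whose groups did not overlap. Many of those genes were picked for low p-values, so a lack of overlap adds no support. The smallest adjusted p was 0.408. The median log2 fold change over all genes, mavacamten minus control, was 0.0036, and 49.2% of the values were negative. The shares of 1.8% higher, 1.7% lower and 49.2% negative are the background for the gene list counts below. DESeq2 on the same counts called 6 genes, 1 higher and 5 lower, of 14892 to which it gave an adjusted p, and 490 genes had an unadjusted p under 0.05 there. The same edgeR model called 1856 genes (12.4%) between R502W control and WT hearts, 1294 higher (8.63%) and 562 lower (3.75%) in R502W. Between treated R502W and WT hearts it called 1232 (8.21%), 889 higher (5.93%) and 343 lower (2.29%). These contrasts share libraries with the treatment contrast, so their values are only set beside it.

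How small a difference could be seen varied by gene. The median standard error of a log2 fold change was 0.16. The 95% confidence interval lay within -1 and 1 on the log2 scale for 12278 genes (81.9%), and within a 1.5-fold difference either way for 9520 (63.5%). For the other genes the interval reached beyond 1.5-fold.

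**Figure D1:**
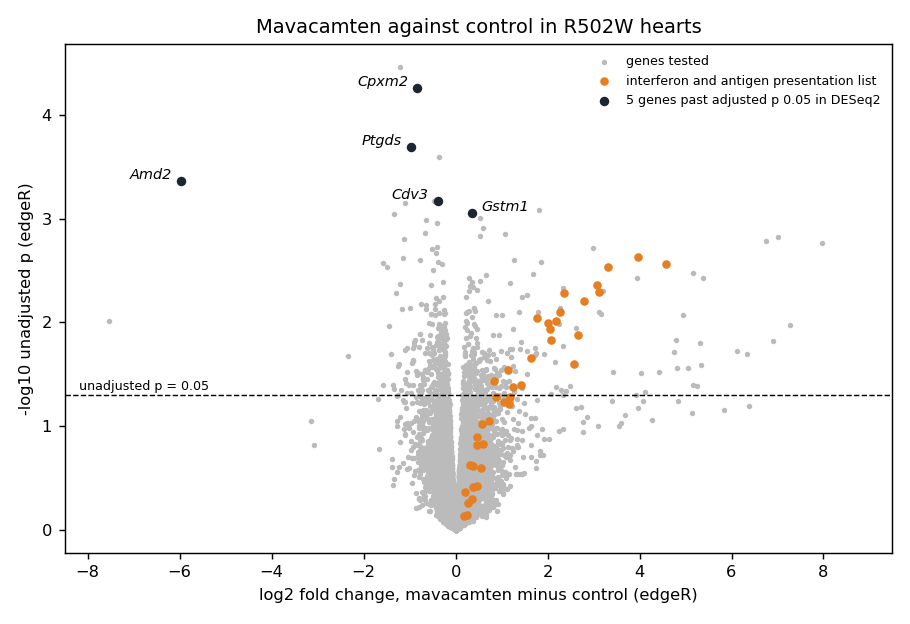
Log2 fold change (mavacamten minus control, edgeR) against −log10 of the unadjusted p for the 15000 genes tested, with 5 genes called by DESeq2 marked dark, the 39 interferon and antigen presentation genes in orange and a dashed line at the unadjusted threshold. Cpxm2 has the smallest p of the 5 marked genes, and all 39 interferon and antigen presentation genes lie to the right of 0.

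Of the genes that DESeq2 called, 5 are described here. Cpxm2, a secreted protein of the metallocarboxypeptidase family (chromosome 7, 132032687 to 132154739, GRCm38), was at 48.9, 49.6, 62.5 and 46.8 CPM in control replicates 1 to 4 and 36.7, 26.4, 27.1 and 26.8 CPM in mavacamten replicates 1 to 4. Its mean was 51.96 ± 7.14 CPM in control (SD, n = 4) and 29.2 ± 4.99 CPM in treated hearts (SD, n = 4). The groups did not overlap, and treated replicate 1 lay nearest to the controls. The difference in Cpxm2 was -0.83 ± 0.14 (SE) on the log2 scale (adjusted p = 0.408 in edgeR, DESeq2 adjusted p = 0.00103), and WT hearts stood at 27.9 ± 4.46 CPM (SD, n = 5). Ptgds, the lipocalin-type prostaglandin D synthase (chromosome 2, 25466709 to 25470046), was at 195, 208, 147 and 184 CPM in control and 127, 75.2, 83.3 and 90.3 CPM in treated hearts. Its groups did not overlap either, with WT at 108 ± 25.9 CPM, and the log2 fold change of Ptgds was -0.96 ± 0.19 (edgeR adjusted p = 0.957, DESeq2 adjusted p = 0.00191). Cdv3 (chromosome 9, 103353094 to 103365840) was at 155, 154, 160.1 and 139 CPM in control and 134, 115, 108 and 108 CPM in treated hearts, against 112 ± 8.12 CPM in WT. The log2 fold change of Cdv3 was -0.39 ± 0.09 (edgeR adjusted p = 1, DESeq2 adjusted p = 0.0269). In Cpxm2, Ptgds and Cdv3 alike, every treated library lay below every control and replicate 1 was the highest treated library.

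Gstm1, a glutathione transferase that conjugates reactive compounds (chromosome 3, 108012255 to 108017973), was the gene that DESeq2 called higher. It was at 152, 158, 167 and 167 CPM in control and 209, 224, 210.3 and 182 CPM in treated hearts, with no overlap and replicate 4 the lowest treated library. The difference in Gstm1 was 0.36 ± 0.08 on the log2 scale (edgeR adjusted p = 1, DESeq2 adjusted p = 0.0208). WT hearts stood at 236 ± 18.3 CPM, and R502W control hearts lay below WT by a log2 difference of -0.55 ± 0.08 in Gstm1 (edgeR adjusted p = 0.00127).

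Amd2 (chromosome 10, 35708675 to 35711892), the last of the DESeq2 calls described here, is a near-identical copy of Amd1, the S-adenosylmethionine decarboxylase gene of polyamine synthesis, and its counts are uncertain because reads could be split between the copies. It was at 0.52, 0.39, 17.3 and 17.5 CPM in control, 0.23, 0, 0.21 and 0.11 CPM in treated and 6.37 to 22.2 CPM in WT hearts. Control replicates 1 and 2 were below 1 CPM, though above every treated library, and replicates 3 and 4 were within the WT range. DESeq2's adjusted p for Amd2 was 0.00129 and edgeR's 1. No fold change is given, since the treated libraries held few or no counts. Amd1 stood at 80.1 to 92.9 CPM in control and 80.4 to 98.2 CPM in treated hearts, a log2 fold change of 0.08 ± 0.10.

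The DESeq2 calls depended to differing degrees on single libraries. With each of the 13 libraries left out in turn, Cpxm2 was called in all 13 runs, Amd2 in 11, Ptgds in 10, Gstm1 in 6 and Cdv3 in 5. DESeq2 called 3 genes without control replicate 2, control replicate 3, mavacamten replicate 2 or mavacamten replicate 3. It called 13 without WT replicate 2 and 14 without control replicate 4. Without mavacamten replicate 1 it called 24, of which 22 were lower, and these held 5 of the 6 genes called with all libraries. Genes called in that run included Acta1, Ankrd23, Tnfrsf12a, Xirp2, Rcan1, Hsph1, Ccn1 and Gdf15. Replicate 1 was the highest treated library in each of these named genes, so leaving it out was bound to widen their differences. edgeR called none in any of these runs, and its smallest adjusted p, without mavacamten replicate 1, was 0.0764.

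**Figure D2:**
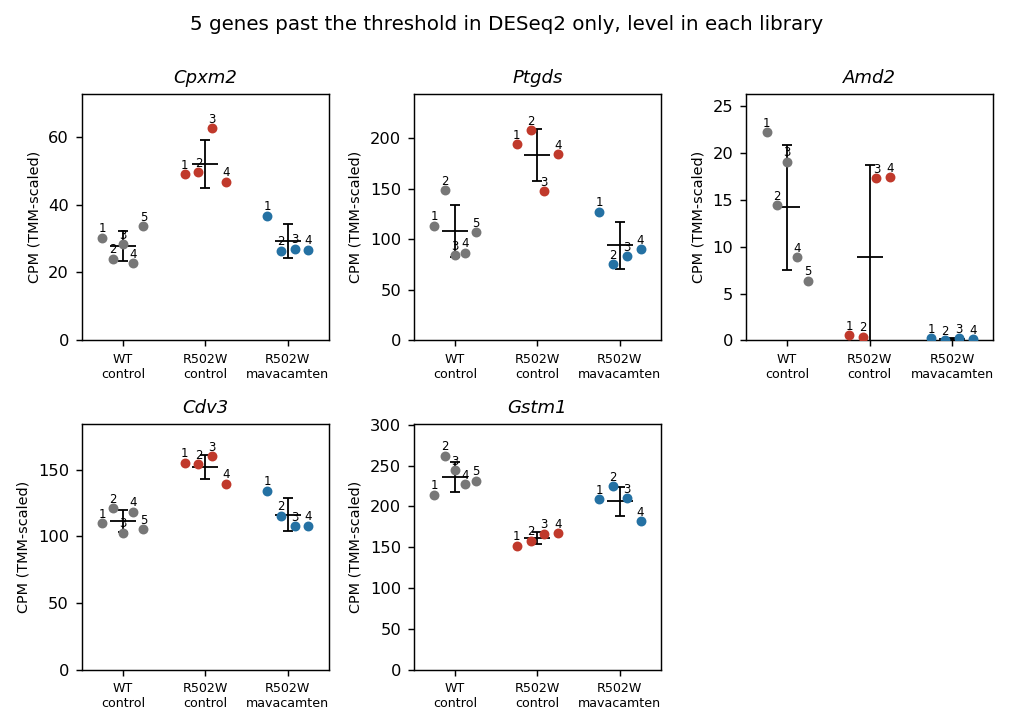
CPM of 5 genes called by DESeq2, by group, with 1 point per library numbered by replicate and bars for the mean ± SD (WT n = 5, R502W groups n = 4 each); the SD bar of Amd2 in R502W control runs below the axis at 0. For Cpxm2, Ptgds and Cdv3 all treated libraries lie below all R502W controls, and for Amd2 the R502W controls split into 2 low and 2 high libraries.

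Other genes with the lowest p-values, called by neither tool with all libraries, had varied functions. Pald1, a protein with phosphatase domains, was at 25.5 ± 2.31 CPM in control and 19.8 ± 0.65 CPM in treated hearts (-0.37 ± 0.08, as log2 fold change ± SE here and below). Lefty1, a secreted inhibitor of Nodal signalling, was at 1.67 ± 0.29 and 0.78 ± 0.14 CPM (-1.10 ± 0.25). Aqp8, a water channel, was at 7.12, 8.78, 7.99 and 6.21 CPM in control and 5.23, 1.87, 3.12 and 1.68 CPM in treated hearts (-1.34 ± 0.32), with WT at 1.82 ± 0.49 CPM. On the higher side, the potassium channel gene Kcna6 was at 1.10 ± 0.25 CPM in control and 2.32 ± 0.26 CPM in treated hearts (1.07 ± 0.27, WT 2.63 ± 0.76 CPM). Smyd3, a lysine methyltransferase, was at 4.90 ± 0.46 and 7.12 ± 1.15 CPM (0.54 ± 0.14, WT 7.15 ± 0.45 CPM). Lgals4, a galectin, was at 22.8 ± 3.76 and 34.7 ± 5.13 CPM (0.60 ± 0.15, WT 52.3 ± 8.14 CPM). All 6 of these genes had groups that did not overlap (all genes, 2.87%). Genes picked for the lowest p in this comparison are likely to separate, so this adds no support. The other 5 of the 10 genes with the lowest p on the higher side were Gm12250, BC023105, Gm4841, Tgtp1 and Iigp1, which were highest in mavacamten replicate 4 and are given with the interferon genes.

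Some genes of the cardiac stress and fetal programme, such as Acta1 and Myh7, stood lower in treated replicates 2 to 4 but not in replicate 1. This pattern was not general. The list summed to 21637 CPM in treated replicate 1, against 21975 to 24299 CPM in control and 18517 to 21919 CPM in treated hearts. Of 19 measured members edgeR called none. Values were negative for 14 and positive for 5, the median log2 fold change was -0.26 (all genes, 0.0036), and 6 were lower at an unadjusted p under 0.05 (all genes, 1.7%). Treated replicate 1 had the highest value of the 4 treated libraries in 11 of the 19 genes and replicate 3 the lowest in 10. Over all genes tested, replicate 1 was the highest treated library in 21.9%, replicate 3 in 30.1% and replicate 4 in 27.7%, and replicate 3 was the lowest in 25.7%. Without the 3 libraries low in Bmp10 (WT replicate 3, control replicate 1 and treated replicate 3) the median was -0.08, and without treated replicate 1 it was -0.35. The former setting leaves out treated replicate 3. Here and below it therefore tends to narrow differences in which replicate 3 was the most extreme treated library. The part of atrial content in these values was not tested.

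Acta1, skeletal alpha-actin, a fetal isoform that returns in the stressed ventricle, was at 1368, 1463, 1230 and 1243 CPM in control and 1390, 611, 471 and 621 CPM in treated hearts. Replicates 2 to 4 of the treated group were below every control, while replicate 1 was above 3 of the 4 controls. For Acta1 the value was -0.78 ± 0.27 (edgeR adjusted p = 1). DESeq2 did not call Acta1 with all libraries. With 1 library left out its value ran from -1.22 to -0.59. The -1.22 was found without replicate 1 (edgeR adjusted p = 0.0764, DESeq2 adjusted p = 1.82e-08). Leaving out the treated library at the control level was bound to widen the difference, so these p-values are no support for it. WT hearts stood at 135 ± 29.2 CPM, and treated hearts lay above WT in Acta1 by 2.52 ± 0.27 on the log2 scale (edgeR adjusted p = 0.000297). Myh7, the slow myosin heavy chain of the fetal ventricle, was at 1877, 1716, 1941 and 1536 CPM in control and 2183, 1451, 599.7 and 1438 CPM in treated hearts. Here replicate 1 was above all controls and replicate 3 was far below them. Myh7 had a log2 fold change of -0.32 ± 0.29, with a 95% interval of -0.94 to 0.30, and values of -0.60 without treated replicate 1 and -0.02 without the 3 libraries low in Bmp10. WT hearts were at 171 ± 38.8 CPM of Myh7.

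Xirp2, an actin-binding protein of the intercalated disc, was at 1250, 1091, 1073 and 842 CPM in control and 796, 608, 614 and 712 CPM in treated hearts (-0.64 ± 0.15, WT 292 ± 50.9 CPM). Ankrd23, a titin-associated ankyrin repeat protein, was at 689, 659, 801 and 632 and 627, 439.9, 461 and 428 CPM (-0.51 ± 0.13, WT 237 ± 27.4 CPM). Neither gene overlapped between the groups, although the lowest control and treated replicate 1 were close in Ankrd23. Rcan1, whose transcript is a readout of calcineurin activity, was at 187, 168, 249.7 and 139 and 151, 117, 105 and 97.7 CPM (-0.66 ± 0.16, WT 64.97 ± 4.61 CPM). Tnfrsf12a, the receptor for the cytokine TWEAK, was at 64.7, 65.9, 63.2 and 55.3 and 64.9, 32.2, 28.96 and 40.4 CPM (-0.58 ± 0.21, WT 16.7 ± 3.06 CPM). As with Acta1, treated replicate 1 sat among the controls in Tnfrsf12a and the other 3 lay below all of them. Ccn1, a matricellular immediate early gene, had the same arrangement, at 94.1, 81.8, 81.7 and 70.4 CPM in control and 91.6, 52.5, 49.7 and 53.4 CPM in treated hearts (-0.41 ± 0.18).

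The natriuretic peptides and Ankrd1 overlapped between the groups. Nppb was at 177, 243, 192 and 173 CPM in control and 187, 114, 79.9 and 171 CPM in treated hearts (-0.51 ± 0.29, 95% interval -1.13 to 0.12). Nppa, which atrial muscle makes in quantity, was at 2655 to 4950 and 1827 to 3972 CPM (-0.26 ± 0.27). Ankrd1, a titin-associated protein induced by stretch, was at 1962, 2056, 1782 and 1622 and 1875, 1348, 1021 and 1989 CPM (-0.25 ± 0.19), and its value was -0.05 without the 3 libraries low in Bmp10. For Nppb and Ankrd1 treated replicates 1 and 4 lay within or close to the control range and replicates 2 and 3 below it. Xirp1, the relative of Xirp2, was at 268 ± 28.02 and 283 ± 14.3 CPM (0.08 ± 0.13). The endothelin gene Edn3 was at 5.75 to 8.88 and 3.89 to 7.88 CPM (-0.45 ± 0.32), against 0.49 ± 0.29 CPM in WT. Fgf6, a growth factor of muscle, was at 3.40, 2.83, 1.91 and 2.23 CPM in control and 3.10, 1.09, 0.28 and 0.59 CPM in treated hearts (-1.01 ± 0.58), again with replicate 1 among the controls. The Fgf6 value was -1.96 without treated replicate 1, -0.68 without treated replicate 3 and -0.52 without the 3 libraries low in Bmp10.

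**Figure D3:**
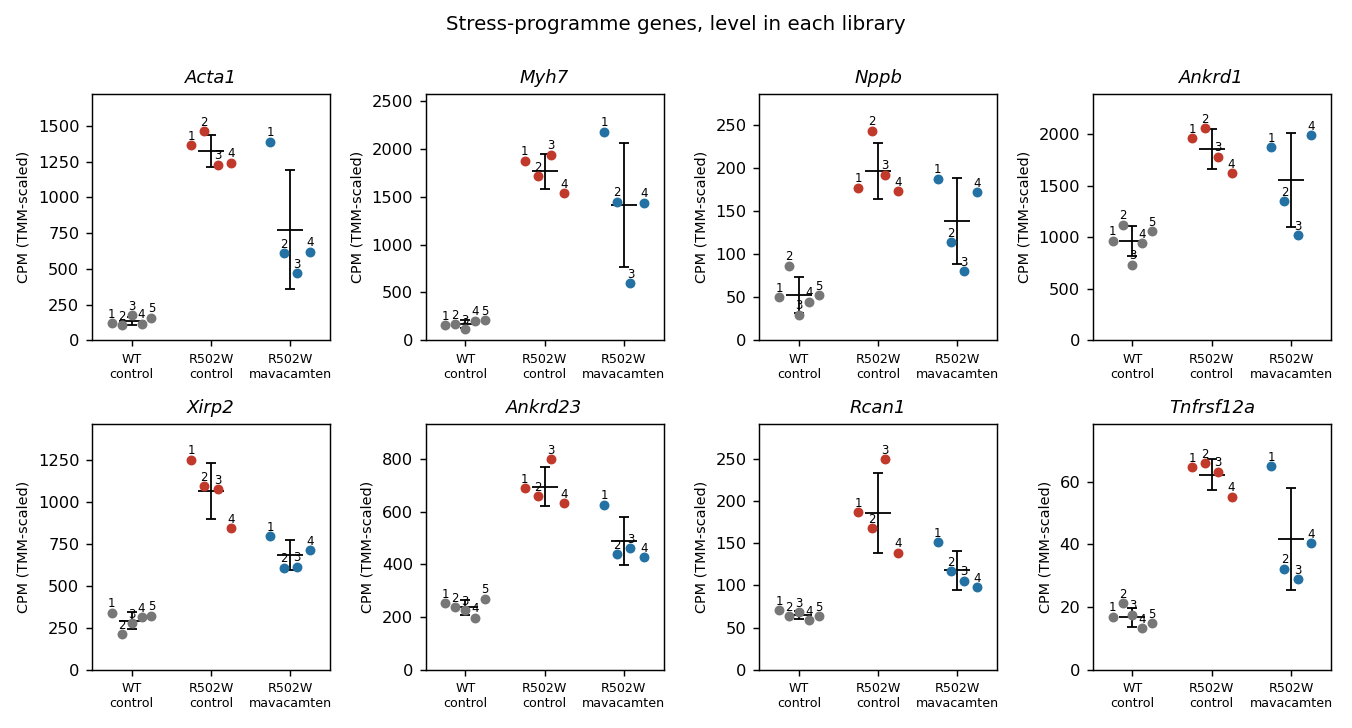
CPM of 8 stress-programme genes by group, with 1 point per library numbered by replicate and bars for the mean ± SD (WT n = 5, R502W groups n = 4 each). For Acta1 and Tnfrsf12a treated replicate 1 lies among the R502W controls while treated replicates 2 to 4 lie below all of them, and Xirp2 and Ankrd23 show no overlap between the 2 R502W groups.

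Sarcomere genes differed little. Of 36 measured members 24 had negative and 12 positive values, with a median of -0.06, and 3 were lower at an unadjusted p under 0.05. Besides Acta1 these were Myom3, an M-band protein (4.78 ± 1.08 and 3.33 ± 0.67 CPM, -0.52 ± 0.20), and Mybpc2, the fast skeletal relative of Mybpc3 (51.5 ± 7.72 and 33.6 ± 14.96 CPM, -0.61 ± 0.25). Mybpc3 itself was at 3641, 3913, 4228 and 3810 CPM in control and 3782, 4178, 4206 and 3127 CPM in treated hearts. Its groups overlapped, and the log2 fold change of Mybpc3 was -0.03 ± 0.12, with a 95% interval of -0.29 to 0.24 and a value of 0.06 without treated replicate 4. A transcript level does not check a label for an amino acid change. Myh6 was at 32515, 33257, 35106 and 31862 CPM in control and 28396, 40240, 40083 and 30669 CPM in treated hearts (0.07 ± 0.17, 95% interval -0.29 to 0.44).

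Calcium handling and electrical genes had medians near that of all genes, -0.0034 over 24 calcium handling genes and 0.01 over 26 ion channel and gap junction genes, and none of either list reached an unadjusted p under 0.05. Atp2a2, the calcium pump of the sarcoplasmic reticulum, was at 12384 ± 1051 CPM in control and 13389 ± 2242 CPM in treated hearts (0.11 ± 0.17). Its inhibitor phospholamban, Pln, was at 3654 ± 301 and 4151 ± 865 CPM (0.18 ± 0.17). S100a1, a calcium sensor that acts on the pump, had separate groups at 262 ± 17.1 and 222 ± 19.9 CPM (-0.24 ± 0.12), as did Asph, whose transcripts include junctin, at 197 ± 5.80 and 178 ± 7.17 CPM (-0.15 ± 0.07). Of the potassium channel genes, Kcnj2 was at 37.5, 37.7, 38.8 and 34.1 CPM in control and 37.2, 48.3, 53.5 and 44.99 CPM in treated hearts (0.31 ± 0.15), and Kcnip2 at 109.9 ± 15.5 and 141 ± 31.3 CPM (0.36 ± 0.17). In the adrenergic, angiotensin and natriuretic list 2 of 24 genes were higher at an unadjusted p under 0.05. These were the alpha-1B adrenergic receptor Adra1b (31.9 ± 5.08 and 41.1 ± 4.65 CPM, 0.37 ± 0.14) and the angiotensin receptor Agtr1a (21.9 ± 3.06 and 28.2 ± 5.14 CPM, 0.36 ± 0.15, WT 36.8 ± 5.80 CPM).

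Matrix genes mostly had negative values, without a call. Of 48 measured members of the matrix and fibrosis list 40 were negative (all genes, 49.2%), with a median of -0.17. At an unadjusted p under 0.05, 2 were lower (all genes, 1.7%). Cilp, a matrix protein found in fibrotic myocardium, was at 52.2, 50.2, 88.2 and 46.1 CPM in control and 47.7, 32.95, 14.2 and 30.7 CPM in treated hearts (-0.91 ± 0.33), against 19.4 ± 7.09 CPM in WT. Control replicate 3 was the highest library and treated replicate 3 the lowest, and treated replicate 1 overlapped the controls. Loxl2, a collagen cross-linking oxidase, was at 26.2 ± 3.22 and 20.8 ± 2.64 CPM (-0.33 ± 0.14). The fibrillar collagen genes Col1a1 (221 ± 33.1 and 187 ± 33.9 CPM, -0.24 ± 0.17) and Col3a1 (393 ± 39.6 and 353 ± 57.5 CPM, -0.15 ± 0.19) overlapped between the groups. Postn, the matricellular protein periostin, overlapped as well, at 96.5, 93.3, 105 and 70.9 CPM in control and 77.7, 67.6, 38.2 and 80.3 CPM in treated hearts (-0.47 ± 0.25). Treated replicate 1 was the highest treated library in 32 of the 48 genes (all genes, 21.9%) and replicate 3 the lowest in 30 (all genes, 25.7%). All 14 fibroblast markers were negative too, with a median of -0.19 and none at an unadjusted p under 0.05. Their summed level was 3359 to 3941 CPM in control and 2901 to 3793 CPM in treated hearts, and its part in the matrix values was not tested. Fewer cells of a type and less RNA per cell cannot be told apart in whole tissue. Without the 3 libraries low in Bmp10, among them treated replicate 3, the matrix median was -0.07 and the fibroblast median -0.10. Leaving out the treated library that was most often the lowest tends to narrow both.

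Transcripts for fuel use had small positive values in most members. Of 41 fatty acid oxidation genes 36 were positive, with a median of 0.10, and 2 were higher at an unadjusted p under 0.05 (all genes, 1.8%). Slc27a1, a fatty acid transporter, was at 150.0, 135, 133 and 171 CPM in control and 178, 169.7, 189.9 and 213 CPM in treated hearts (0.35 ± 0.10, WT 222 ± 17.2 CPM). Only treated replicate 2 lay under the highest control in Slc27a1. Acot1, an acyl-CoA thioesterase, was at 11.1 ± 2.55 and 14.5 ± 1.97 CPM (0.39 ± 0.15, WT 18.2 ± 1.43 CPM). Of 52 nuclear-encoded oxidative phosphorylation genes 45 were positive, with a median of 0.06 and none at an unadjusted p under 0.05. The lowest p there belonged to Sdhc, of complex II (0.15 ± 0.11), and Uqcrfs1, of complex III (0.14 ± 0.11). Treated replicate 3 was the highest treated library in 44 of the 52 genes and in 27 of the 41 fatty acid genes (all genes, 30.1%). Without the 3 libraries low in Bmp10, among them treated replicate 3, the oxidative phosphorylation median was -0.03. Leaving out the treated library that was most often the highest tends to lower it. The 13 transcripts encoded by mitochondrial DNA summed to 179003 to 249283 CPM in control and 173126 to 279433 CPM in treated hearts, with none at an unadjusted p under 0.05.

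Among genes for other fuels, 15 of 18 in the branched-chain amino acid and ketone list were positive (median 0.11), and 2 were higher at an unadjusted p under 0.05. Bckdhb, a subunit of the branched-chain ketoacid dehydrogenase, was at 29.2, 28.1, 32.6 and 31.9 CPM in control and 33.99, 35.7, 37.4 and 33.1 CPM in treated hearts with no overlap (0.20 ± 0.08). Ppm1k, the phosphatase that activates this complex, was at 74.98 ± 6.28 and 93.4 ± 13.1 CPM (0.32 ± 0.13). In the glucose and glycogen list 17 of 30 were positive, with a median of 0.02 and none at an unadjusted p under 0.05. Its lowest p-values were those of Pfkfb2, the cardiac isoform of a regulator of glycolysis (103 ± 6.29 and 80.8 ± 14.3 CPM, -0.35 ± 0.17), and the related Pfkfb1 (6.13 ± 2.15 and 9.29 ± 3.35 CPM, 0.60 ± 0.30). Ugp2, which makes UDP-glucose for glycogen, was at 263, 225, 237 and 219.7 CPM in control and 191, 177, 190.1 and 157 CPM in treated hearts (-0.40 ± 0.10, WT 163 ± 16.8 CPM). Nmrk2, a muscle kinase of NAD synthesis, was at 10.8, 9.06, 13.4 and 10.7 and 7.03, 5.79, 5.67 and 7.25 CPM (-0.77 ± 0.21, WT 6.44 ± 2.04 CPM). Neither Ugp2 nor Nmrk2 overlapped between the groups (all genes, 2.87%), and both were chosen after their values were seen.

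Chaperone genes mostly had negative values. In the heat shock list 19 of 23 were negative (all genes, 49.2%), with a median of -0.07. At an unadjusted p under 0.05, 2 were lower (all genes, 1.7%). Hsph1, a co-chaperone of Hsp70 proteins, was at 71.2, 63.4, 56.4 and 54.2 CPM in control and 53.3, 40.5, 42.4 and 40.5 CPM in treated hearts (-0.47 ± 0.11, WT 32.7 ± 1.93 CPM). The groups did not overlap, but control replicate 4 and treated replicate 1 were close. Hsp90aa1, the inducible cytosolic Hsp90, was at 189 ± 25.98 and 139.7 ± 25.6 CPM (-0.44 ± 0.14). In the endoplasmic reticulum stress list 18 of 20 were negative (median -0.13), and 3 were lower at an unadjusted p under 0.05 (all genes, 1.7%). These were the folding enzyme Pdia4 (-0.25 ± 0.10) and the chaperones Hyou1 (-0.21 ± 0.09) and Hsp90b1 (-0.18 ± 0.08). Treated replicate 1 was the highest treated library in 15 of the 20 genes of this list (all genes, 21.9%). Serpinh1, the collagen chaperone, was at 223, 237, 274 and 204 CPM in control and 214, 164, 175 and 166 CPM in treated hearts (-0.39 ± 0.11).

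In the integrated stress response and one-carbon list 16 of 20 genes were negative (median -0.11). Mthfd2, Gdf15, Atf5 and Slc7a5 were lower at an unadjusted p under 0.05 (all genes, 1.7%). Mthfd2, a mitochondrial folate enzyme, was at 8.49, 8.06, 10.3 and 5.49 CPM in control and 3.66, 3.09, 3.33 and 4.60 CPM in treated hearts (-1.13 ± 0.31, WT 2.59 ± 1.05 CPM). Gdf15, a stress cytokine, was at 2.68, 3.33, 4.89 and 2.18 and 1.86, 0.51, 1.42 and 0.59 CPM (-1.57 ± 0.43, WT 0.52 ± 0.21 CPM). Neither gene overlapped between the groups, and both stood at low levels. The oxidative stress list had 23 of 28 positive (median 0.08), with 3 higher and 1 lower at an unadjusted p under 0.05. Nqo1, a quinone reductase, was at 25.7, 27.9, 34.5 and 32.5 CPM in control and 44.2, 51.6, 40.3 and 37.1 CPM in treated hearts with no overlap (0.52 ± 0.13, WT 29.2 ± 3.35 CPM). The other higher members were Gstm1 and Gclm, a subunit of the enzyme that starts glutathione synthesis (0.27 ± 0.12). The lower one was heme oxygenase, Hmox1 (7.62 ± 1.20 and 6.06 ± 0.60 CPM, -0.33 ± 0.14).

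Immediate early genes, which respond quickly to many stimuli, were negative in 23 of 24 members (median -0.33), and Ccn1 and Egr2 were lower at an unadjusted p under 0.05. Their spread within groups was wide. Fos, a subunit of the AP-1 transcription factor, was at 34.3, 18.5, 4.78 and 29.8 CPM in control and 25.4, 2.38, 3.82 and 14.1 CPM in treated hearts (-0.92 ± 0.62). Treated replicate 1 was the highest treated library in 13 of the 24 genes (all genes, 21.9%) and replicate 4 in 11 (all genes, 27.7%). Without the 3 libraries low in Bmp10 the median was -0.07. Clock genes had similar levels in both R502W groups. Arntl, an activator of the clock loop, was at 20.8 ± 3.55 CPM in control, 19.9 ± 3.39 CPM in treated and 3.84 ± 2.06 CPM in WT hearts, and the output factor Dbp at 40.3 ± 12.1, 41.7 ± 9.39 and 183 ± 18.8 CPM. Of 19 clock genes (median -0.04) the repressor Nfil3 was lower at an unadjusted p under 0.05 (11.3 to 16.3 and 7.85 to 11.1 CPM, -0.36 ± 0.15). Cytosolic ribosomal protein genes had a median of -0.03 over 42 genes, with none at that threshold.

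Mavacamten replicate 4 alone carried a strong interferon signature among the 8 libraries. Cells exposed to interferon make GTPases of the IRG and GBP families, which act against microbes in vacuoles, and proteins of antigen presentation, through transcription factors that bind promoter elements called GAS and ISRE. All 39 measured genes of the interferon and antigen presentation list were highest in this library. Its ratio to the highest of the other 7 had a median of 4.93, was over 2 in 34 genes and over 10 in 12. The list summed to 9213 CPM there and to 900 to 1079 CPM in control libraries. With all libraries 20 of the 39 were higher at an unadjusted p under 0.05 (all genes, 1.8%) and the median log2 fold change was 1.16. Without replicate 4 the median was -0.02, 4 were higher and 1 lower, and 20 of the 39 were negative. Of the 270 genes higher at an unadjusted p under 0.05 in the whole table, 129 were kept at that threshold without this library, against 196 to 207 without another treated library and 149 to 166 without a control library.

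The promoters of 3 of these genes show the elements. RefSeq's sequences run from 250 bases before to 50 bases after the start, 5′ to 3′, and capitals mark matches to GAS (TTCNNNGAA) or ISRE (GAAANNGAAA) on either strand.
Igtp (chr11:58199306-58199605, + strand, GRCm38.p6): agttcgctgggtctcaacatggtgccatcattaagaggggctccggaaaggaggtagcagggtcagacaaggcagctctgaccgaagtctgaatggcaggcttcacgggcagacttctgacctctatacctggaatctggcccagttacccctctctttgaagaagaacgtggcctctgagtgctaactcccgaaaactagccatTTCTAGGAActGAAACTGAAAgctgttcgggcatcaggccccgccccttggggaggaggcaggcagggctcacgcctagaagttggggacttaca
Irgm2 (chr11:58214727-58215026, + strand, GRCm38.p6): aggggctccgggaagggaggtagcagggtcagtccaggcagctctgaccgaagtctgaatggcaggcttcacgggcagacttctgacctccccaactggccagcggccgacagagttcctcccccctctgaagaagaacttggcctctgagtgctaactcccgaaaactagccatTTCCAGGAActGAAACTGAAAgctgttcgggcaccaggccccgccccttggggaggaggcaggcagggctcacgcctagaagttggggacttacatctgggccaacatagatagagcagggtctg
Gbp2 (chr3:142620413-142620712, + strand, GRCm38.p6): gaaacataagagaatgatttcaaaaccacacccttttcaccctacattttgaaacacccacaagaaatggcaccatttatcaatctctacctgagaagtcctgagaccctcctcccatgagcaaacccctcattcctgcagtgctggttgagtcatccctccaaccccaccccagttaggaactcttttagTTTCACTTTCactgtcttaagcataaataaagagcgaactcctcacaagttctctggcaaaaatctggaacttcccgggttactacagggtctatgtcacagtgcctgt
Igtp and Irgm2 hold both motifs, and Gbp2 holds ISRE. Promoters were found for 30 of the 39 genes, 35 in all. GAS occurred in 9 of them (25.7%, against 8.3% of all 32851 promoters), ISRE in 17 (48.6%, against 3.44%) and at least 1 of both in 20 (57.1%, against 11.3%). The motifs can overlap, and a match describes letters in the window, not binding. Igtp, an IRG GTPase, was at 8.95 to 14.3 CPM in control hearts and 15.2, 21.2, 13.95 and 1139 CPM in treated replicates 1 to 4. Irgm2, a regulator of the same family, was at 18.5 to 21.4 and 25.8, 35.3, 24.4 and 699 CPM, and the guanylate-binding protein gene Gbp2 at 13.95 to 19.2 and 20.99, 20.1, 16.00 and 403 CPM. In all 3 genes treated replicate 4 stood far above the other 7 libraries.

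Iigp1, another IRG GTPase, was at 21.5 to 26.3 CPM in control and 29.7, 48.8, 31.02 and 1404 CPM in treated hearts. Treated replicates 1 to 3 of Iigp1 also lay above the highest control. The T cell attractant Cxcl9 was at 2.12 to 3.88 and 2.98, 5.66, 3.82 and 91.5 CPM. Gm4841 was at 0.33 to 1.04 CPM in control and 0.79, 1.09, 0.85 and 582 CPM in treated hearts, and its log2 fold change was 0.67 without replicate 4. BC023105 was at 0.47 to 1.11 and 1.07, 1.48, 1.13 and 271 CPM (0.93 without replicate 4), and Gm12250 at 0.20 to 0.41 and 0.45, 1.22, 0.92 and 169 CPM (1.39 without it). The GTPase gene Tgtp1 was at 1.24 to 3.61 CPM in control and 5.01, 7.01, 5.59 and 68.99 CPM in treated hearts (1.09 without replicate 4). In Gm12250 and Tgtp1 treated replicates 1 to 3 also lay above every control, while in BC023105 and Gm4841 they overlapped the controls. Fitted log2 fold changes with and without replicate 4 were 3.97 ± 1.07 and 0.59 for Iigp1 and 4.57 ± 1.25 and 0.42 for Igtp. DESeq2 gave neither gene an adjusted p. Ighm, the immunoglobulin M heavy chain, was at 13.1 to 17.05 CPM in control and 46.2, 14.5, 8.64 and 109.9 CPM in treated hearts. The 9 measured lymphocyte markers summed to 18.3 to 24.04 CPM in control and 14.8 to 130.1 CPM in treated hearts, and the defining T cell gene Cd3e was at most 0.73 CPM in any of the 8 libraries. The part of immune cells in the values of replicate 4 was not tested.

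**Figure D4:**
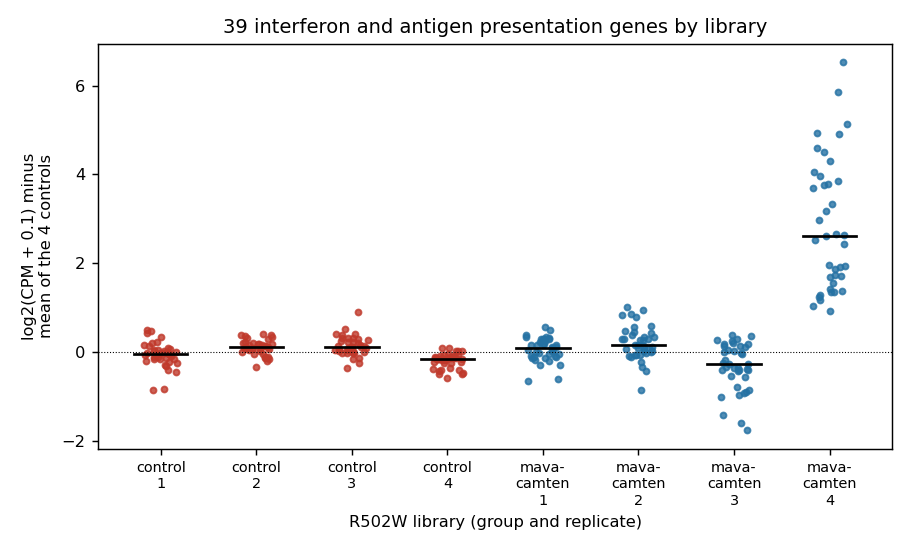
Level of the 39 interferon and antigen presentation genes in each R502W library, as log2(CPM + 0.1) minus the mean of the 4 controls, with 1 point per gene and a line at each library's median. Mavacamten replicate 4 stands above the other 7 libraries for all 39 genes.

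Among markers of other cell types, all 7 erythroid genes were negative (median -0.37), and 3 were lower at an unadjusted p under 0.05 (all genes, 1.7%). Among these were the red cell anion exchanger Slc4a1 (-1.06 ± 0.44) and the heme synthesis enzyme Alas2 (-0.46 ± 0.21). The 7 erythroid genes summed to 4236 to 5226 CPM in control and 2956 to 4689 CPM in treated hearts. Treated replicate 3 was the lowest treated library for all 7 (all genes, 25.7%). Of 14 endothelial markers 13 were negative (median -0.15), with the sialomucin gene Emcn at 46.8 ± 2.96 and 39.4 ± 7.35 CPM (-0.25 ± 0.12) and the adhesion molecule gene Pecam1 at 192 ± 11.97 and 169.6 ± 16.2 CPM (-0.18 ± 0.09). Treated replicate 4 was the lowest treated library in 13 of the 14 (all genes, 30.7%). With 1 library left out the endothelial median ran from -0.17 to -0.09. In the angiogenesis and hypoxia list (17 of 22 negative, median -0.11) Angpt2, a ligand that destabilises vessels, was higher at an unadjusted p under 0.05 (3.40, 4.61, 4.05 and 4.19 and 5.01, 5.34, 5.10 and 7.62 CPM, 0.50 ± 0.20). The lymphatic growth factor gene Vegfc was lower (6.53, 5.61, 6.36 and 6.89 and 5.46, 5.28, 5.52 and 3.24 CPM, -0.38 ± 0.16). In Angpt2 and Vegfc treated replicate 4 was the extreme library, and the groups did not overlap. Treated replicate 4 was also the lowest treated library in 16 of the 22 angiogenesis and hypoxia genes. Of 16 atrial markers 15 were negative (median -0.18), with none at an unadjusted p under 0.05. With 1 library left out this median ran from -0.32 to 0.05, so its sign rested on single libraries. Control replicate 2 was the highest control in 13 of the 16 (all genes, 22.5%) and control replicate 3 the lowest in 13 (all genes, 25.1%).

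Of 15 macrophage markers 10 were negative (median -0.06), and Adgre1, which encodes a surface receptor of macrophages, was lower at an unadjusted p under 0.05 (15.5 to 22.3 and 13.5 to 15.96 CPM, -0.35 ± 0.15). In the inflammation list 19 of 29 were negative (median -0.05) and 4 were lower at that threshold, Ptgds, Tnfrsf12a, the cytokine gene Tnf (-0.94 ± 0.37) and the cytokine receptor gene Il1rl1 (-0.72 ± 0.31). Sox9, a transcription factor of cartilage and valves, had separate groups (5.32 ± 0.85 and 3.77 ± 0.46 CPM, -0.50 ± 0.19). The 9 adipocyte markers followed single libraries, with sums of 23.3 to 1039 CPM in control and 33.01 to 1378 CPM in treated hearts, and their median of 0.38 became -1.45 without treated replicate 4. The airway genes Scgb1a1 (0 to 0.67 and 1.67 to 87.2 CPM) and Cyp2f2 (0.17 to 0.78 and 0.64 to 51.2 CPM) were highest in treated replicate 1, while Sftpc and Sftpb, which define alveolar cells, were at 0 in all libraries of both groups but that one. Sftpa1 and Sftpd were at 1.58 and 2.64 CPM in treated replicate 1 and at most 0.16 CPM in the other R502W libraries.

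The remaining lists held few low p-values. Rcan1 was the only one of 34 calcineurin and hypertrophy genes at an unadjusted p under 0.05 (median 0.0021). Of 25 polyamine, NAD and prostaglandin enzymes (median -0.05) Ptgds, Amd2 and Nmrk2 were lower at that threshold. No member reached it among the autophagy and lysosome genes (22 genes, median -0.01), cell cycle genes (23, -0.10), ventricular markers (12, 0.13), mural markers (12, 0.05), mesothelial markers (9, -0.06), neutrophil markers (4, 0.20) or lymphocyte markers (9, 0.79). Of 6 measured skeletal muscle markers (median -0.42) Acta1 and Tnni2 were lower at that threshold. Below the count filter, the fast myosin gene Myh4 was at 0 in all 8 libraries. Myh1 and Myh2 were at most 0.17 and 0.23 CPM, and Tnnt3 reached 1.73 CPM in treated replicate 4. None of the 5 thymus markers passed the count filter. Rag2 and Ptcra were at 0 in all 8 libraries, and Rag1, Dntt and Cd8b1 were at most 0.27, 0.11 and 0.52 CPM.

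**Figure D5:**
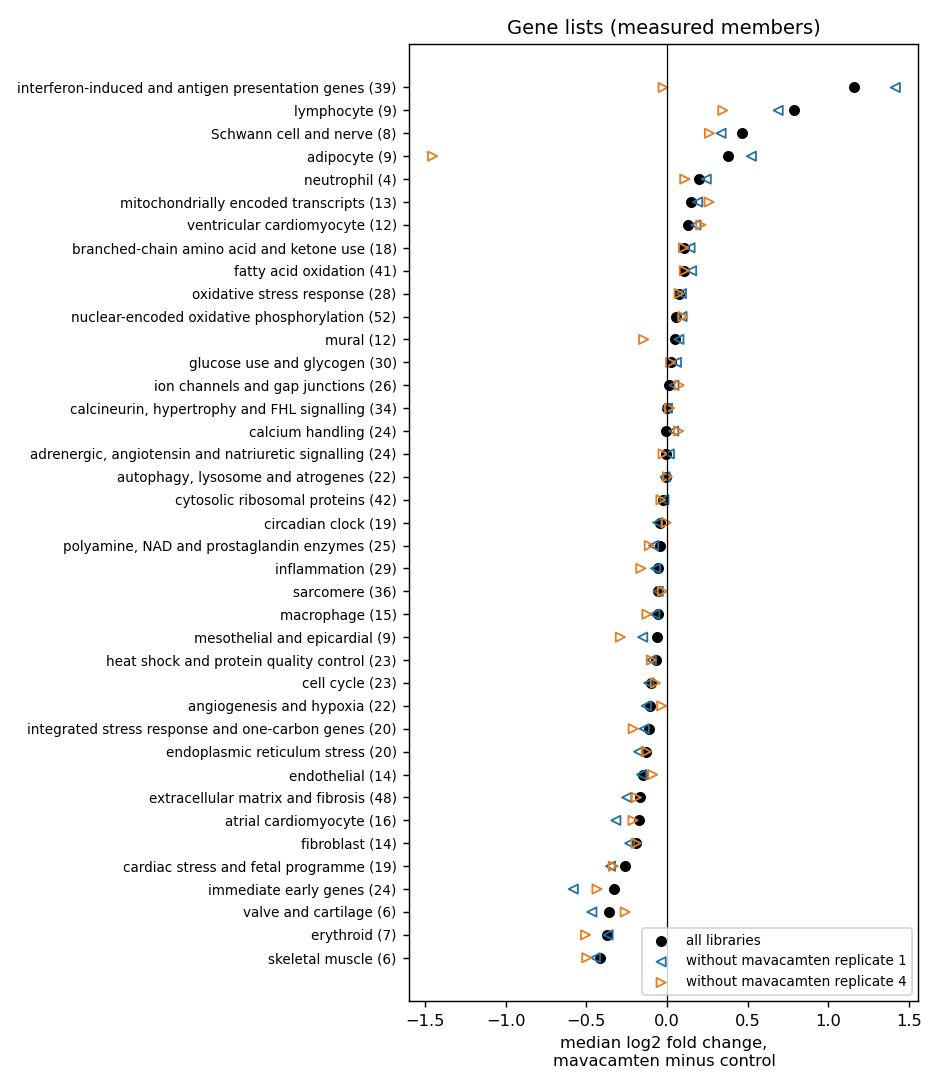
Median log2 fold change, mavacamten minus control, of the measured members of 39 gene lists, with all libraries (black), without treated replicate 1 (blue) and without treated replicate 4 (orange); the airway list, with 2 measured genes, and the thymus list, with none, are not drawn. The interferon list moves from 1.16 to -0.02 without replicate 4.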

How the data were processed

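Poly(A) RNA of whole hearts was sequenced as strand-specific libraries, per the labels' protocols. The authors deposited expected counts per gene, made with RSEM after cutadapt and FastQC on build GRCm38, per the submitters' processing notes. Neither an aligner nor whether counting used strand is stated in the sources used here. The expected counts (5.76% of values fractional) were rounded. Gene names and positions came from GENCODE M21, with 241 of 55471 IDs unmatched. Genes were filtered with filterByExpr (minimum count 10, minimum total 15) and tested with edgeR 4.0.16 (TMM, quasi-likelihood, 1 mean per group, all 13 libraries) in R 4.3.3, with Benjamini-Hochberg adjustment and a threshold of 0.05. DESeq2 1.42.0 was an alternative, beside other normalization, other filters, fewer libraries, a replicate block and a length correction. The fit was tested on simulated data. CPM were computed with TMM factors. No pair of replicates agreed within sampling noise (22 pairs).

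The text names 12 fixed cardiac genes, the 10 lowest p-values per direction (mean of at least 1 CPM) and the 2 members with the smallest p per list. Most but not all counts of 5 or fewer are spelled out by gene, and 22 further genes, among them Ankrd23, Ugp2, Nmrk2, Serpinh1, Bmp10, Adipoq, Arntl and Amd1, were chosen after their values were seen. Not every gene picked in this way is reported here. The members and lists were chosen with earlier results of these data known. Same-numbered libraries of the R502W groups did not deviate together, so the numbers were not treated as pairs.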

Additional observations from a re-analysis of the deposited data

Results flagged for a closer look

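In 25 of 234 groups of 4 libraries (10.7%), 1 library lay far from the other 3 relative to the group's range. Chance flags about 1 in 20 groups, but many of these genes were picked for their p-values or after their values were seen, so the share and its division among libraries are not read against that rate. Mavacamten replicate 4 was the distant library in 13 of them. It was high in Iigp1 (1404 CPM), Igtp (1139 CPM), Irgm2 (699 CPM), Gm4841 (582 CPM), Irgm1 (499 CPM), Gbp2 (403 CPM), BC023105 (271 CPM), Irf1 (185 CPM), Gm12250 (169 CPM), Cxcl9 (91.5 CPM), Tgtp1 (69.0 CPM) and Angpt2 (7.62 CPM), and low in Vegfc (3.24 CPM). Mavacamten replicate 1 was high in 6, namely Acta1 (1390 CPM), Ankrd23 (627 CPM), Ccn1 (91.6 CPM), Scgb1a1 (87.2 CPM), Hsph1 (53.3 CPM) and Cpxm2 (36.7 CPM). Among controls, replicate 3 was high in Ccnd1 (115 CPM), Cilp (88.2 CPM) and Nfil3 (16.3 CPM). Control replicate 1 was low in Bmp10 (1.57 CPM) and high in BC023105 (1.11 CPM), and control replicate 2 was high in Cxcr2 (0.72 CPM).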

How the results depend on the processing

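edgeR called 0 genes under every setting run. DESeq2 called 1 higher and 5 lower, 3 of them list members. Genes at an unadjusted p under 0.05 numbered 872 of 26561 tested with no low-count filter, against 525 of 15000 in the main fit. With only the 8 R502W libraries they numbered 696 of 14505. With 1 library left out they numbered 389 to 794, with 794 of 14877 without WT replicate 2. DESeq2 called 3 to 24 genes with 1 library left out, 4 without the 3 libraries low in Bmp10 and 8 without the 2 libraries with T cell or interferon-induced transcripts (WT replicate 2 and mavacamten replicate 4). The last 2 settings, and DESeq2 with libraries left out, were chosen after seeing the data.

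With a replicate block 365 genes had an unadjusted p under 0.05 and none was called (smallest adjusted p 0.562). Same-numbered libraries had correlations of -0.003, -0.021, 0.294 and -0.138, and none correlated best with its own number.

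Of 121 genes 115 kept their sign under all settings in which they were fitted. Many of the 121 were picked for their p-values or after their values were seen, and the settings share libraries. A kept sign is therefore no separate support. With 1 library left out, the sign changed for the Adipoq log2 fold change (-1.36 to 1.87), the Arntl log2 fold change (-0.17 to 0.025), the Bmp10 log2 fold change (-0.62 to 0.22), the Dbp log2 fold change (-0.077 to 0.28), the Mybpc3 log2 fold change (-0.064 to 0.056) and the Retn log2 fold change (-0.78 to 1.45). Without the 2 libraries with T cell or interferon-induced transcripts, Adipoq stood at -1.35, Arntl at 0.010, Mybpc3 at 0.056 and Retn at -0.77. The cause was not tested.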
